A study of Mus musculus with 4 samples.

Results

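The phagocyte NADPH oxidase and the enzymes that remove reactive oxygen species were examined through 9 genes, which were chosen by symbol from the 31053 genes counted in each library. The 4 oxidase subunits were Cybb, Cyba, Ncf1 and Ncf4, and the 5 antioxidant enzymes were Sod2, Cat, Gpx1, Nqo1 and Srxn1. Each symbol matched 1 gene of the files. The study sorted CD45+ immune cells from the spinal cord of C57BL/6 mice aged 3 months and sequenced them in 4 droplet-based libraries, 1 per condition. The titles of the uninjured libraries say healthy spinal cords, while the study calls these mice sham and describes sham as laminectomy alone. The tissue of the standard sham library was dissociated without a transcription inhibitor. For the ActD sham library, actinomycin D (ActD), which blocks transcription, was present during dissociation. The libraries at 3 and 14 days post injury (dpi) came from mice with a contusion of the thoracic cord and were also dissociated with ActD. The study used mice of both sexes, and the number in each library is not given in the sources used here. Since there was 1 library per condition, no difference between conditions could be tested, and every interval below covers counting error only.

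The oxidase of phagocytes transfers electrons from NADPH to oxygen and so makes superoxide. Cybb encodes gp91phox, the catalytic subunit, which is stabilised in the membrane by p22phox, the product of Cyba. Ncf1 (p47phox) and Ncf4 (p40phox) are cytosolic subunits that join the membrane complex upon activation. Sod2 converts superoxide to hydrogen peroxide in mitochondria, Cat and Gpx1 break hydrogen peroxide down, Srxn1 repairs over-oxidised peroxiredoxins and Nqo1 reduces quinones. Nqo1 and Srxn1 are known targets of the transcription factor Nrf2, and Cybb is a known target of PU.1 in myeloid cells.

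In mm10, the build given in the submitters' processing notes, GENCODE places Cybb on chromosome X between 9435252 and 9487771 on the minus strand. It places Srxn1 on chromosome 2 between 152105516 and 152111376 on the plus strand. Within a class, Cybb ranged up to 23.7-fold between libraries (neutrophils) and Srxn1 up to 13.9-fold (microglia), and the promoters of these genes are therefore shown, as 300 bases from RefSeq (GRCm38.p6) that run from 250 bases before to 50 bases after the annotated start. Capitals mark matches on either strand to GAGGAA, the core of the PU.1 motif, or to TGACNNNGC, the core of the antioxidant response element bound by Nrf2. The RefSeq start of Cybb lies within the GENCODE gene. The Cybb window is chrX:9469275-9469574 on the minus strand, and the Srxn1 window is chr2:152105274-152105573 on the plus strand.
Cybb: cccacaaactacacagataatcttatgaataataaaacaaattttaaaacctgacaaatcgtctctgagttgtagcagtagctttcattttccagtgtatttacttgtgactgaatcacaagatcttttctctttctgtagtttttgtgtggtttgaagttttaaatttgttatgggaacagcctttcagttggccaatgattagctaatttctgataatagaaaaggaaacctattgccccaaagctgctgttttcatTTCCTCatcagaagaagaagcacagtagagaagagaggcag
Srxn1: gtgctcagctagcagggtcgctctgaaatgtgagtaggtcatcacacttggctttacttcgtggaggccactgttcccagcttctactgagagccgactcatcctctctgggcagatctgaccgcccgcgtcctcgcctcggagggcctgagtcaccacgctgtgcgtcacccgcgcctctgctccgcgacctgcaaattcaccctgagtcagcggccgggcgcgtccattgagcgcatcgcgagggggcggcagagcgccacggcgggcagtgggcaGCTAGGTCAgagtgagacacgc
The 1 match in Cybb was to the PU.1 core, at bases 10 to 15 of the transcript, and the 1 match in Srxn1 was to the antioxidant response element core, at bases 29 to 37. Of 32851 promoter windows of this length, 28.3% held the PU.1 core and 12.4% held the antioxidant response element core, so neither match is rare. The reference held a window for 8 of the 9 members. Sod2 and Cat also had 1 match each to the PU.1 core, and the windows of Cyba, Ncf1, Gpx1 and Nqo1 had no match to either. A match only states that these letters are present.

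The libraries held 6827 barcodes in standard sham, 2439 in ActD sham, 10763 at 3 dpi and 11631 at 14 dpi, with 27447471 to 129935880 UMIs (unique molecular identifiers, each counting 1 captured transcript) per library. Pairs of libraries shared 3 to 36 barcodes. After filtering, 5099, 2139, 8342 and 9208 cells were kept, and clusters were named from marker genes, so that each name below means cells like that type. Microglia numbered 2661, 1473, 860 and 3782 cells in standard sham, ActD sham, 3 dpi and 14 dpi. Neutrophils numbered 342, 97, 1679 and 1207 cells in the same order. Border macrophages, named from a list that includes Mrc1, Cd163 and Lyve1, numbered 134, 141, 114 and 301 cells. The 301 cells at 14 dpi held 7106 CPM of microglial markers and 2099 CPM of border macrophage markers, so that their name is less certain. Monocytes were named in standard sham (248 cells), at 3 dpi (505 cells) and at 14 dpi (758 cells). Infiltrating macrophages were named only at 3 dpi, with 3580 cells, since a cluster of 571 cells at 14 dpi led by Gpnmb, Apoc4 and Ms4a7 also scored for microglia and was left unnamed. Median depth differed between classes and libraries, from 2314 UMIs per neutrophil at 3 dpi to 20390 UMIs per microglial cell at 3 dpi. Levels are given in CPM, the usual unit in which the UMIs of a gene are scaled to the total UMIs of its class in a library, so that fewer transcripts of a gene per cell and more transcripts of other genes cannot be told apart.

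In neutrophils, monocytes and microglia, Cybb was the oxidase subunit with the largest range between libraries, and in neutrophils it was lowest at 3 dpi. Neutrophils held 844 CPM in standard sham, 1689 CPM in ActD sham, 71.2 CPM at 3 dpi and, at 14 dpi, 1187 CPM. The 3 dpi level, with a 95% Poisson interval of 63.3 to 79.8 CPM from 295 UMIs, lay far below those of the other 3 libraries. Relative to ActD sham, Cybb at 3 dpi was lower by 4.57 on the log2 scale (interval −4.74 to −4.40). Between 3 and 14 dpi it was higher by 4.06 (3.89 to 4.23), a 16.7-fold ratio. Monocytes held 1074 CPM in standard sham, 293 CPM at 3 dpi and 1433 CPM at 14 dpi, and the log2 ratio of 14 dpi over 3 dpi was 2.29 (2.20 to 2.38). Border macrophages held 664, 528, 247 and 515 CPM in standard sham, ActD sham, 3 dpi and 14 dpi. The lowest level of Cybb was thus found at 3 dpi in neutrophils, monocytes and border macrophages, and infiltrating macrophages at 3 dpi held 125 CPM. The cells named monocytes at 3 dpi held 8682 CPM of infiltrating macrophage markers and 6848 CPM of monocyte markers, and no monocytes were named in ActD sham. In border macrophages the log2 ratio of 3 dpi over ActD sham was −1.10, and −0.82 relative to the median gene. Dendritic cells went from 186 CPM at 3 dpi to 371 CPM at 14 dpi.

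In microglia, Cybb followed another order and was highest at 14 dpi. Microglia held 21.2 CPM in standard sham, 10.97 CPM in ActD sham, 66.3 CPM at 3 dpi and, at 14 dpi, 186 CPM. The log2 ratios over ActD sham were 2.60 (2.36 to 2.84) at 3 dpi and 4.08 (3.86 to 4.32) at 14 dpi, and that of 14 dpi over 3 dpi was 1.49 (1.40 to 1.57). Under alternative processing, these 3 ratios ranged from 1.71 to 3.11, from 3.34 to 4.65 and from 0.88 to 1.71. In ActD sham, neutrophils held 154-fold more Cybb on the CPM scale than microglia. At 3 dpi the same ratio was 1.07-fold, with a log2 interval of −0.09 to 0.28 that includes 0, and at 14 dpi it was 6.38-fold. T cells, taken here as a reference for free RNA from other cells, held 33.1 CPM in ActD sham from 8 UMIs. They held 17.6 CPM at 3 dpi and, at 14 dpi, 18.9 CPM. Expression by the T cells themselves was not separated from free RNA. The microglial level in ActD sham did not exceed that of T cells, whereas those at 3 and 14 dpi did. No T cell class was named in standard sham, so that library has no such reference. B cells, which are known to express Cybb, held 59.9 to 265 CPM over the 4 libraries.

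**Figure D1:**
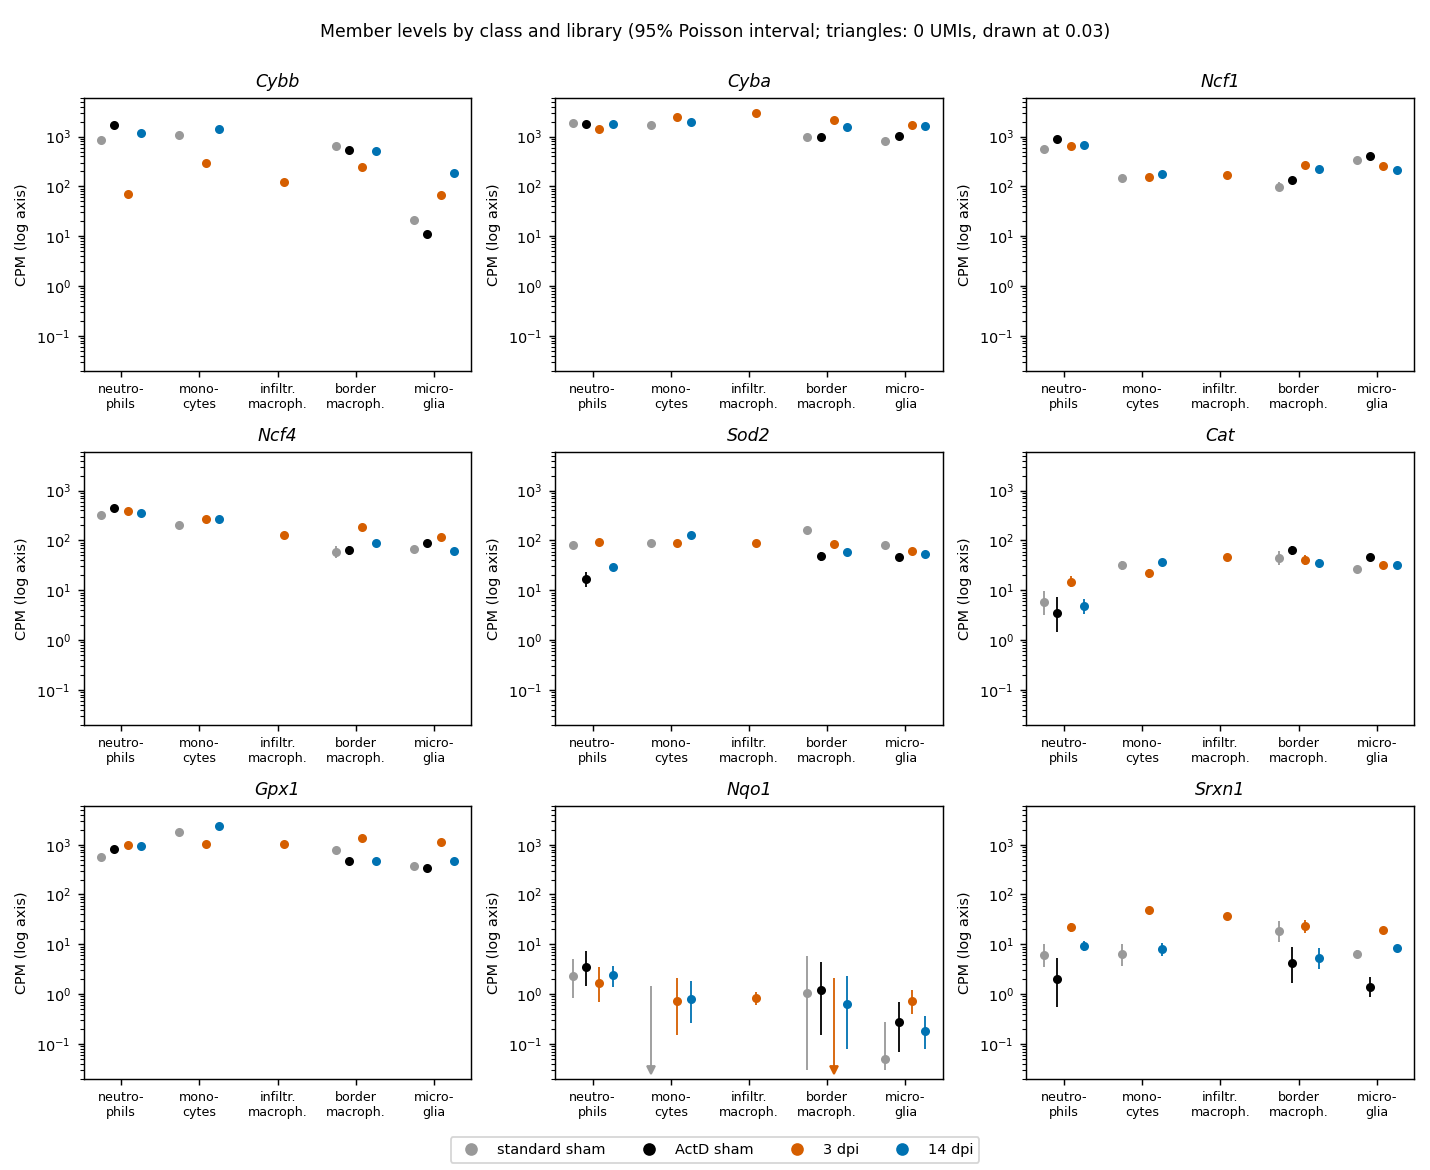
Level of each of the 9 genes in CPM (log axis) by class, with 1 point per library and 95% Poisson intervals. Cybb at 3 dpi (orange) lies below the other libraries in neutrophils (71.2 CPM) and monocytes (293 CPM), whereas in microglia both injury libraries lie above both sham libraries.

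Cells with at least 1 Cybb UMI were then counted after each cell was thinned to 1000 UMIs. Among neutrophils, 38.9%, 59.8%, 5.74% and 38.0% of cells had a Cybb UMI in standard sham, ActD sham, 3 dpi and 14 dpi. Among microglia, the shares were 1.504%, 0.751%, 6.88% and 13.1%. T cells gave 0 of 27 cells in ActD sham after thinning, which allows a share of up to 11.1% of cells with a UMI (3 of 27 cells, with a Clopper-Pearson bound of 12.8%), and 2 of 27 cells without thinning. Their shares were 1.55% at 3 dpi and 1.61% at 14 dpi. In microglia the order of the libraries was that of the CPM. In neutrophils ActD sham was highest and 3 dpi lowest on both scales, but the shares of standard sham (interval 33.7% to 44.3%) and 14 dpi (35.3% to 40.8%) overlapped and did not follow their CPM order. Thinning left out 6 of the 3 dpi neutrophils and 1 to 8 microglia per library. Without thinning, the shares were 75.2%, 89.7%, 11.1% and 59.4% of neutrophils and 6.501%, 4.68%, 48.4% and 47.8% of microglia.

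The level of Cybb in neutrophils also differed between clusters of the same library. At 14 dpi, a cluster of 439 cells led by Ltf, Ngp and Ly6g held 1805 CPM. A cluster of 486 cells led by Retnlg, Mmp8 and Mmp9 held 354 CPM, and a cluster of 282 cells led by Cxcl2, Acod1 and Il1b held 103 CPM. At 3 dpi, 1640 of the 1679 neutrophils fell in a cluster led by G0s2, Il1b and Mmp9 that held 52.6 CPM, and the other 39 cells, led by Ngp, Retnlg and Camp, held 391 CPM. The only neutrophil cluster in each sham library was led by Ltf. Ltf, Ngp and Camp, which encode granule proteins made by maturing neutrophils, were chosen after the leading genes were seen. Their summed level was 48160 CPM in standard sham, 66130 CPM in ActD sham, 1368 CPM at 3 dpi and, at 14 dpi, 52720 CPM. The order of the libraries in these granule genes was the same as that in Cybb, and their part in the Cybb difference was not tested. When clusters led by Ltf or Ngp were left out, no sham neutrophils remained, and the log2 ratio of Cybb at 14 dpi over 3 dpi was 2.47 in place of 4.06.

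Microglial clusters differed in Cybb as well. At 14 dpi, Cybb ranged from 29.6 CPM in a cluster of 841 cells led by P2ry12, Crybb1 and Tmem119 to 315 CPM in a cluster of 912 cells led by Lpl, Ch25h and Plau. A second cluster led by Crybb1, P2ry12 and Tmem119 held 93.3 CPM. At 3 dpi the 560 microglia led by Sparc and Gpr34 held 62.4 CPM, and 300 cells led by the cell cycle genes Cenpf and Mki67 held 72.4 CPM. Named microglial clusters of at least 50 cells held 0.92 to 33.7 CPM in ActD sham and 8.99 to 186 CPM in standard sham. The highest value in standard sham belonged to 65 cells led by Spp1, Lpl and Il12b. Some ActD sham clusters that scored best for microglia were left unnamed and held more than this range. In 101 such cells led by Prss34, Mcpt8 and Ccl3, with Spp1 and Lpl also leading, Cybb was 91.1 CPM. In 98 such cells led by Cxcl9, Tyrobp and Xlr it was 35.3 CPM. Unnamed clusters of this kind in standard sham held 25.5 and 60.8 CPM. The cluster of 571 unnamed cells at 14 dpi held 392 CPM. The summed level of the 9 microglial markers was 25760 CPM in ActD sham, 4798 CPM at 3 dpi and 10770 CPM at 14 dpi, and all 9 were detected in each library. Over the same libraries, the 8 markers of infiltrating macrophages summed to 49.5, 2469 and 568 CPM in microglia, with 7, 8 and 8 of them detected. These markers moved with Cybb between ActD sham and the injury libraries, and their part in the microglial difference was not tested.

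**Figure D2:**
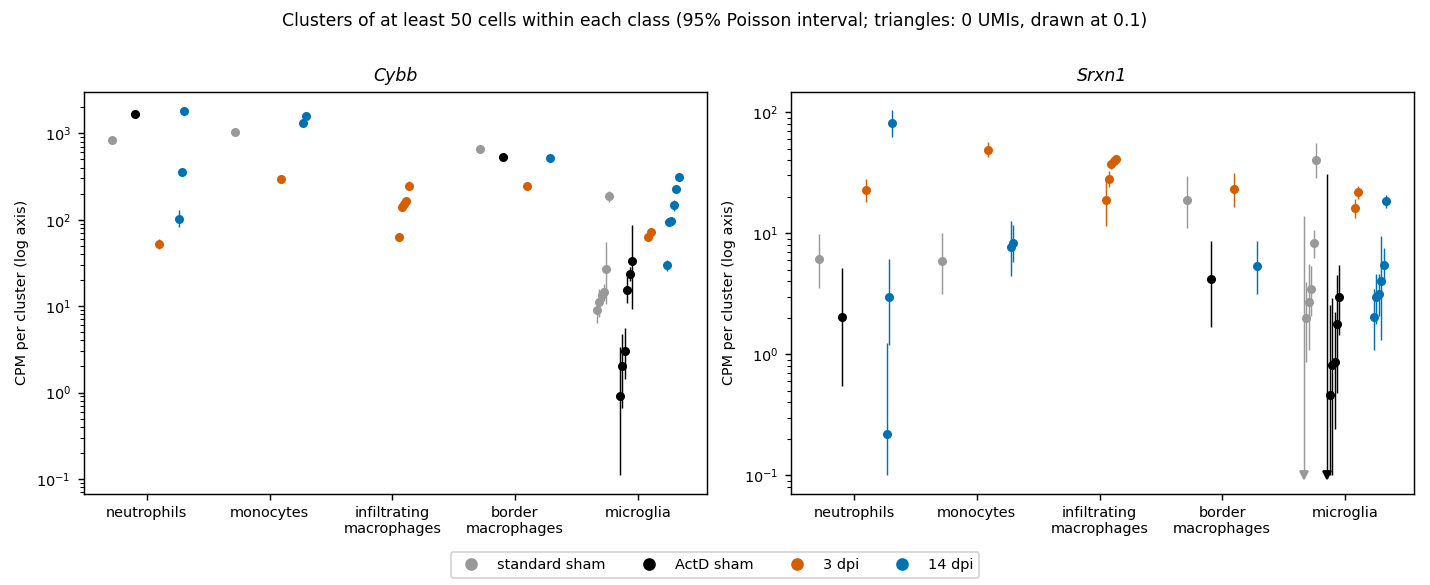
Cybb (left) and Srxn1 (right) in CPM on log axes, with 1 point per cluster of at least 50 cells, coloured by library, and 95% Poisson intervals. At 14 dpi the 3 neutrophil clusters span 103 to 1805 CPM for Cybb, and for Srxn1 the order of these clusters is different, with 80.8 CPM in the cluster that is lowest for Cybb.

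In neutrophils, monocytes and microglia the other oxidase subunits ranged less between libraries than Cybb, by at most 2.13-fold. In border macrophages Ncf4 (3.17-fold) and Ncf1 (2.76-fold) ranged more than Cybb (2.69-fold). Cyba in neutrophils was 1858, 1801, 1409 and 1781 CPM in standard sham, ActD sham, 3 dpi and 14 dpi, and in microglia it was 819, 1041, 1744 and 1658 CPM. Microglial Cyba was therefore higher in both injury libraries, by 0.74 (0.72 to 0.77) and 0.67 (0.65 to 0.70) on the log2 scale over ActD sham. Its level in infiltrating macrophages at 3 dpi was 2997 CPM, the highest of the classes and libraries described here. In border macrophages it went from 979 CPM in ActD sham to 2172 CPM at 3 dpi and 1567 CPM at 14 dpi. T cells held 512 to 838 CPM of Cyba, which is used by other cell types too.

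Ncf1 separated neutrophils from the other classes in every library. Neutrophils held 559, 898, 662 and 691 CPM in standard sham, ActD sham, 3 dpi and 14 dpi, and microglia held 341, 414, 260 and 216 CPM. The neutrophil to microglia ratio was 1.64-fold, 2.17-fold, 2.54-fold and 3.20-fold in the same order. Monocytes held 148 to 179 CPM and infiltrating macrophages held 168 CPM. In microglia, Ncf1 was thus lower in both injury libraries, whereas Cybb and Cyba were higher, with log2 ratios over ActD sham of −0.67 (−0.72 to −0.61) at 3 dpi and −0.94 (−0.98 to −0.89) at 14 dpi. Relative to the median gene of these comparisons, which was itself lower, Ncf1 was −0.12 and −0.41. Ncf4 lay between 323 and 443 CPM in neutrophils and between 60.6 and 116 CPM in microglia. In border macrophages Ncf4 was 63.2 CPM in ActD sham, 189 CPM at 3 dpi and 90.5 CPM at 14 dpi.

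Of the antioxidant enzymes, Srxn1 was highest at 3 dpi in all 4 classes that were present in several libraries. Microglia held 6.34 CPM in standard sham, 1.40 CPM in ActD sham, 19.5 CPM at 3 dpi and 8.41 CPM at 14 dpi. Neutrophils held 6.12, 2.03, 21.7 and 9.18 CPM in the same order, from 16, 4, 90 and 70 UMIs. In monocytes Srxn1 was 6.34 CPM in standard sham, 49.1 CPM at 3 dpi and 7.94 CPM at 14 dpi, and border macrophages held 18.8, 4.21, 23.0 and 5.36 CPM over the 4 libraries. The intervals at 3 dpi did not overlap those of ActD sham or 14 dpi in any of the classes, but in border macrophages they overlapped that of standard sham. T cells held 8.33 CPM at 3 dpi (4.85 to 13.3), which is below the 4 classes at 3 dpi, and 2.74 CPM at 14 dpi. Relative to ActD sham, the log2 ratio at 3 dpi was 3.80 (3.16 to 4.51) in microglia, 3.42 (2.01 to 5.32) in neutrophils and 2.45 (1.28 to 3.85) in border macrophages. Within neutrophils at 14 dpi, Srxn1 was 80.8 CPM in the cluster led by Cxcl2, Acod1 and Il1b, 2.98 CPM in that led by Retnlg and 0.22 CPM in that led by Ltf. Microglial clusters at 14 dpi ranged from 2.02 CPM (led by Crybb1 and P2ry12) to 18.4 CPM (led by Lpl, Ch25h and Plau). At 3 dpi, the microglia led by Sparc and Gpr34 held 21.7 CPM and those led by Cenpf and Mki67 held 16.1 CPM. In standard sham, 65 microglia led by Spp1, Lpl and Il12b held 40.5 CPM, and the other named microglial clusters there held 0.0 to 8.29 CPM.

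Gpx1 differed between classes in its order over the libraries. In microglia it was 374, 346, 1134 and 476 CPM in standard sham, ActD sham, 3 dpi and 14 dpi, and in border macrophages it was 789, 467, 1378 and 464 CPM. Both classes were thus highest at 3 dpi, with log2 ratios over ActD sham of 1.71 (1.67 to 1.75) and 1.56 (1.44 to 1.68). In monocytes 3 dpi was instead lowest, with 1805 CPM in standard sham, 1018 CPM at 3 dpi and 2329 CPM at 14 dpi. Neutrophils held 569, 837, 1006 and 963 CPM.

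Sod2 in neutrophils was 80.0 CPM in standard sham, 16.8 CPM in ActD sham, 94.3 CPM at 3 dpi and, at 14 dpi, 29.8 CPM. The standard sham and 3 dpi levels had overlapping intervals and lay above the other 2 libraries. Within 14 dpi neutrophils, Sod2 was 124 CPM in the cluster led by Cxcl2, Acod1 and Il1b, against 15.3 and 21.3 CPM in the other clusters. Microglial Sod2 was 79.6, 45.8, 62.7 and 54.2 CPM, and monocytes held 90.4 CPM in standard sham, 89.8 CPM at 3 dpi and 132 CPM at 14 dpi. Cat was low in neutrophils, at 5.74, 3.56, 15.0 and 4.72 CPM from 7 to 62 UMIs per library, and lay between 22.3 and 63.2 CPM in the other classes. Nqo1 was close to the limit of detection, with 18 to 94 UMIs in all kept cells of a library and at most 3.56 CPM in any of the 5 classes. In border macrophages at 3 dpi no Nqo1 UMI was found, and 3 UMIs would correspond to 1.69 CPM there.

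The oxidase share, which is the percentage of the members' UMIs that came from the 4 oxidase subunits, was compared between classes within each library. It mixes genes of different capture and is dominated by Cyba and Gpx1, so only its differences are read. Neutrophils had shares of 84.4%, 84.8%, 69.0% and 79.9% in standard sham, ActD sham, 3 dpi and 14 dpi. Microglia had shares of 71.9%, 77.9%, 63.6% and 78.8%. Neutrophils exceeded microglia by 12.4, 6.9, 5.3 and 1.1 percentage points, but at 14 dpi the difference was −2.8 points as a mean over cells of CPM per cell. Without Cyba and Gpx1, the differences were 15.7, 14.6, 10.1 and 14.9 points. Both classes had their lowest share at 3 dpi, and without Cyba and Gpx1 this still held in neutrophils (89.4%). Microglia then had 79.3% at 3 dpi and 79.2% in standard sham, with overlapping intervals. Both values were below the 84.5% of ActD sham and the 83.1% of 14 dpi. With all members, the share also differed between neutrophil clusters. At 14 dpi it was 84.13% in the cluster led by Ltf, 69.98% in that led by Retnlg and 69.73% in that led by Cxcl2. The main cluster at 3 dpi, led by G0s2, had 68.3%. A low share in neutrophils was thus also found at 14 dpi, and the part of the clusters in the class shares was not tested. In neutrophils the summed oxidase level at 3 dpi was 2531 CPM against 4831 CPM in ActD sham, and the antioxidant level was 1138 against 863 CPM. In microglia both sums were higher at 3 dpi than in ActD sham, with 2186 against 1555 CPM for the oxidase and 1249 against 440 CPM for the antioxidant enzymes. Monocytes had their highest share at 3 dpi, with 73.4% against 61.7% in standard sham and 60.9% at 14 dpi. This turned without Cyba and Gpx1, when monocytes were lowest at 3 dpi, with 81.6% against 91.8% in standard sham and 91.45% at 14 dpi. Infiltrating macrophages at 3 dpi had 73.8%, and border macrophages had 63.9%, 74.5%, 65.3% and 81.0%.

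**Figure D3:**
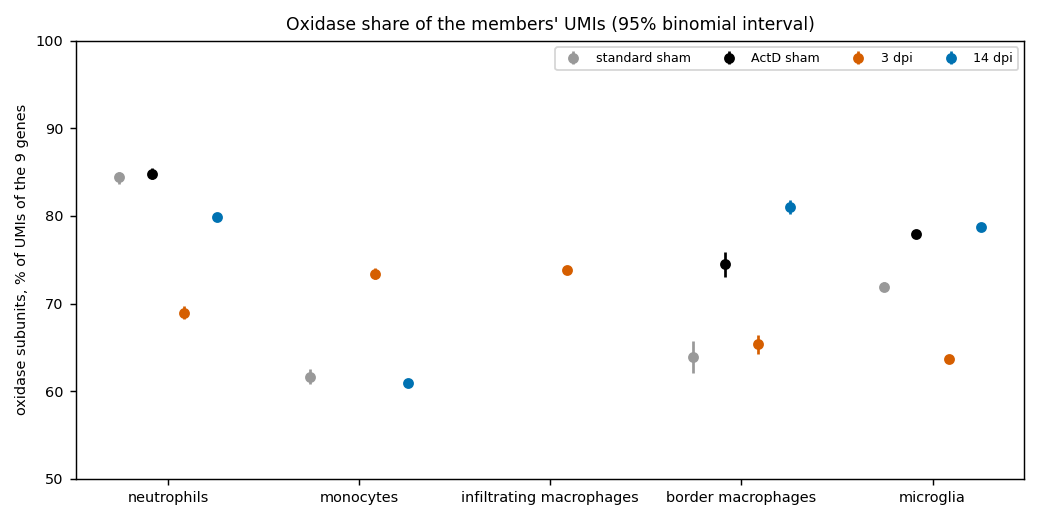
Percentage of the UMIs of the 9 genes that came from the 4 oxidase subunits, by class and library, with exact binomial 95% intervals; the axis starts at 50%. Neutrophils and microglia are lowest at 3 dpi (69.0% and 63.6%), while monocytes are highest at 3 dpi (73.4%). Without Cyba and Gpx1, monocytes are lowest at 3 dpi (81.6%). Microglia then have 79.3% at 3 dpi and 79.2% in standard sham, against 84.5% in ActD sham and 83.1% at 14 dpi.

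A member was called past 2-fold when its CPM ratio between libraries reached 2 and did so again relative to the median gene of the pair, among genes with at least 20 UMIs. The median gene itself was shifted, by 0.99 on the log2 scale in neutrophils at 3 dpi over ActD sham, by −1.13 at 14 dpi over 3 dpi, and by −0.55 and −0.53 in microglia at 3 and 14 dpi over ActD sham. In neutrophils at 3 dpi over ActD sham, Sod2, Cat and Srxn1 were called higher, where 25.9% of 9289 genes were called higher, and Cybb was called lower, where 8.46% were. Markers of other classes moved with this comparison: in neutrophils the 8 infiltrating macrophage markers summed to 220.5 CPM in ActD sham (4 detected) and 2174 CPM at 3 dpi (8 detected), and the 7 border macrophage markers to 9.15 CPM (5 detected) and 862 CPM (7 detected). The 10 neutrophil markers summed to 353900 and 58280 CPM. In standard sham neutrophils the infiltrating macrophage markers summed to 2211 CPM, although no infiltrating macrophages were named there, and the border macrophage markers to 146.9 CPM. The part of these markers in the calls was not tested. In the 14 dpi over ActD sham comparison only Srxn1 was called higher (background of 9.05%), and none was called lower (7.03%). Between 14 and 3 dpi, only Cybb was called higher in neutrophils (5.92%), and none was lower (20.9%). With edgeR TMM scaling, which assumes that most genes are unchanged, 7 members passed in neutrophils at 3 dpi over ActD sham, with Cyba, Ncf1 and Ncf4 added as lower. At 14 dpi over 3 dpi, 6 members passed with TMM, with Cyba, Ncf1, Ncf4, Gpx1 and Nqo1 added as higher. In these comparisons TMM shifted the log2 ratio of every gene, by −0.83 and 1.16 in that order. No share of all genes passing with TMM is given, so the added calls have no background.

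In microglia, Cybb, Gpx1 and Srxn1 were called higher at 3 dpi over ActD sham, against a background of 15.3% of 12272 genes, and no member was lower (18.5%). Over ActD sham at 14 dpi, Cybb and Srxn1 were called higher (7.32%) and none lower (7.17%). Between 14 and 3 dpi, Cybb was called higher (11.1%) and Gpx1, Nqo1 and Srxn1 were called lower (14.6%), of which Nqo1 rested on 8 and 14 UMIs. In monocytes at 14 dpi over 3 dpi, Cybb was called higher (11.6%) and Srxn1 lower (7.31%). The cells named monocytes held 8682 CPM of infiltrating macrophage markers and 6848 CPM of the 9 monocyte markers at 3 dpi, against 1620 and 11100 CPM at 14 dpi, with each marker detected in both libraries. These sums moved with the calls, and their part was not tested. In border macrophages at 3 dpi over ActD sham, Cyba, Ncf4, Gpx1 and Srxn1 were called higher (8.91%) and none lower (15.1%), and at 14 dpi over ActD sham no member was called in either direction (4.63% and 8.40%). At 14 dpi over 3 dpi they had Cybb called higher (13%) and Ncf4, Gpx1 and Srxn1 called lower (11.5%), but 1 member in place of 4 was called when cells with 200 genes and up to 20% mitochondrial UMIs were kept, and likewise with doublets kept. In the cells named border macrophages, infiltrating macrophage markers summed to 793 CPM in ActD sham (6 of 8 detected), 6713 CPM at 3 dpi and, at 14 dpi, 1135 CPM. The 9 microglial markers summed to 3743, 1013 and 7106 CPM in the same order and the 7 border macrophage markers to 7437, 9396 and 2099 CPM, so that at 14 dpi the microglial sum was the higher one. Their part in the calls was not tested. The comparisons share libraries and so are not independent of each other.

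**Figure D4:**
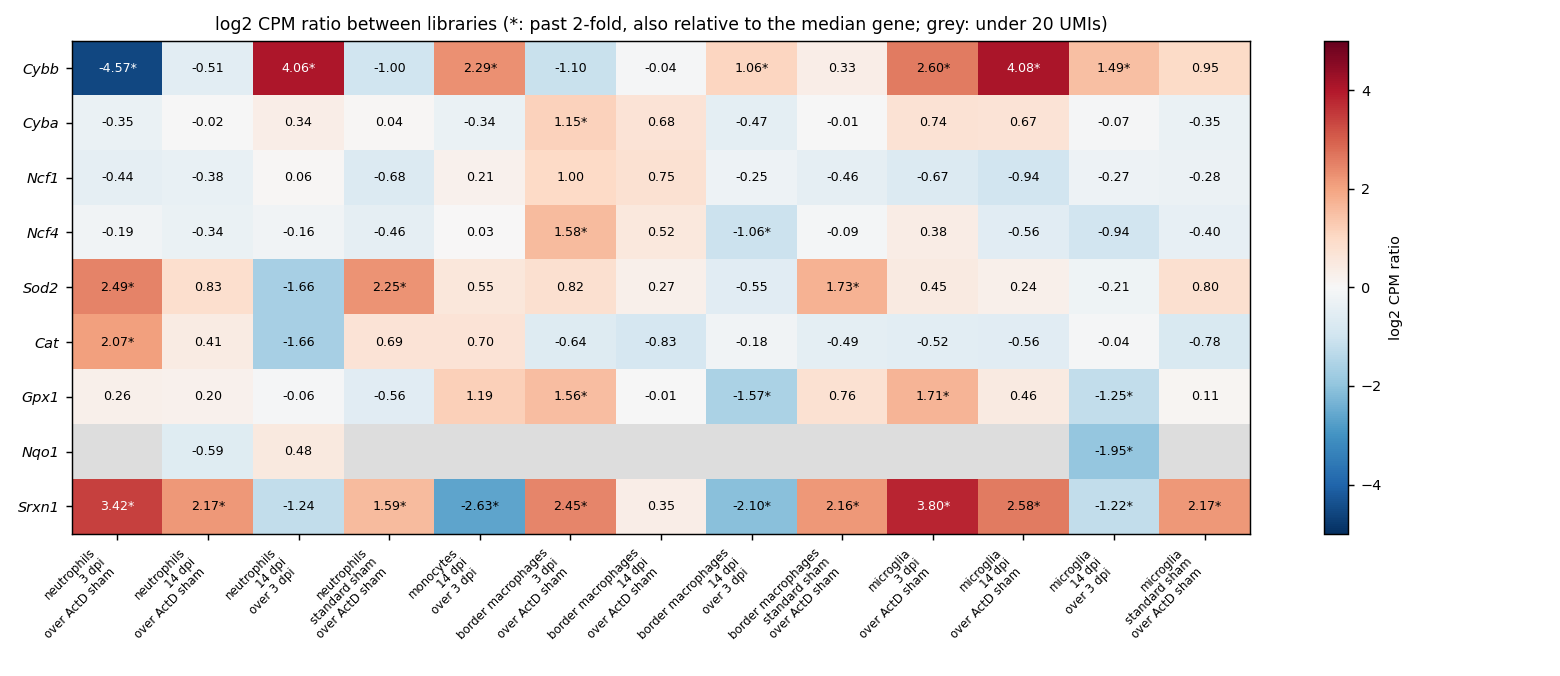
log2 CPM ratio of each gene (rows) in each of the 13 comparisons between libraries (columns), with red for higher and blue for lower in the library named first, an asterisk for calls past 2-fold and grey for under 20 UMIs. Cybb is −4.57 in neutrophils and 2.60 in microglia at 3 dpi over ActD sham.

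The 2 sham libraries differed in the use of ActD, which cannot be told apart from other differences between these libraries. The file headers name software version 3.0.1 for standard sham and 3 dpi and 3.1.0 for ActD sham and 14 dpi. Several levels split likewise. Those below are examples, and how many levels split or did not split was not counted. Neutrophil Sod2 was 80.0 and 94.3 against 16.8 and 29.8 CPM, and neutrophil Cybb 844 and 71.2 against 1689 and 1187 CPM. In border macrophages Srxn1 was 18.8 and 23.0 against 4.21 and 5.36 CPM, and Gpx1 789 and 1378 against 467 and 464 CPM. Oxidase shares were 71.9% and 63.6% against 77.9% and 78.8% in microglia, and likewise lower under 3.0.1 in border macrophages. Microglial Cybb and Srxn1 did not split in this way. The part of the software version was not tested. Srxn1 was called higher in standard sham in neutrophils, border macrophages and microglia, with log2 ratios of 1.59, 2.16 and 2.17, of which that in neutrophils rested on 16 and 4 UMIs and had an interval of −0.04 to 3.63. Sod2 was called higher in neutrophils (2.25, interval 1.72 to 2.83) and border macrophages (1.73, 1.33 to 2.14), and it was 0.80 in microglia. No member was called lower in these comparisons. The background of genes called higher was 12.5%, 5.27% and 7.07% in neutrophils, border macrophages and microglia, and that of genes called lower was 12.2%, 10.1% and 8.5%. The 20 immediate early genes, such as Fos, Jun and Egr1, summed to 48370 CPM in standard sham microglia and 1080 CPM in ActD sham microglia. At 3 dpi they summed to 5688 CPM in microglia, 21580 CPM in neutrophils and 6465 CPM in border macrophages, against 2522 CPM in ActD sham neutrophils and 1684 CPM in ActD sham border macrophages. At 14 dpi they were 797, 6268 and 1069 CPM in these classes. Immediate early genes were therefore higher at 3 dpi than in ActD sham, as were Srxn1 in these 3 classes and Sod2 in neutrophils, and their part in these differences was not tested.

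Further genes of both pathways were read from lists that leave out the members. Of 13 other oxidase genes in the files, 6 to 8 had enough UMIs in a comparison, and 0 to 3 of them were called. The most were called in microglia. At 3 dpi over ActD sham, 1 of 7 was called higher and 2 lower, against 15.3% and 18.5% of all genes. At 14 dpi over 3 dpi, 2 of 8 were called higher and 1 lower, against 11.1% and 14.6%. Counts this small cannot be set apart from these shares. Rac2, the small GTPase that activates the oxidase in leukocytes, was 1280, 1513, 753 and 1149 CPM in neutrophils over the 4 libraries, and it was called lower at 3 dpi over ActD sham (log2 ratio −1.01). In microglia Rac2 went the other way, from 147 CPM in ActD sham to 300 CPM at 3 dpi, with a log2 ratio of 1.02. BC017643, an older name of Cybc1, which is needed to make gp91phox, was called lower at 3 dpi in microglia (92.8 to 27.0 CPM) and border macrophages (92.6 to 35.4 CPM). Hvcn1, a proton channel that sustains oxidase activity, was higher in microglia at 14 dpi (112 CPM) than at 3 dpi (52.3 CPM).

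Of 34 other antioxidant genes, 32 were tested in microglia at 3 dpi over ActD sham, and 17 were called higher and 1 lower, against 15.3% and 18.5% of all genes. Their median log2 ratio was 1.07 against −0.55 over all genes tested. Hmox1, which degrades heme, was 234, 30.5, 2515 and 84.4 CPM in microglia of standard sham, ActD sham, 3 dpi and 14 dpi, a log2 ratio of 6.37 (6.23 to 6.5) at 3 dpi over ActD sham. It was also highest at 3 dpi in neutrophils (783 CPM), monocytes (1515 CPM) and border macrophages (2884 CPM), and it reached 4710 CPM in infiltrating macrophages. Prdx1, a peroxiredoxin, was 26.4 CPM in ActD sham neutrophils and 434 CPM at 3 dpi. Infiltrating macrophage markers in neutrophils also moved, from 220.5 CPM in ActD sham to 2174 CPM at 3 dpi, but they were 2211 CPM in standard sham. In infiltrating macrophages themselves they summed to 10110 CPM. The part of RNA from other cells in the neutrophil levels of Hmox1 and Prdx1 was not tested. In neutrophils at 3 dpi over ActD sham, 10 of 29 genes were called higher and 3 lower, against 25.9% and 8.46% of all genes, with a median of 1.14 against 0.99 over all genes. With TMM scaling, for which no share of all genes is given, 10 were called higher and 9 lower. The 3 that were lower without TMM were G6pdx, which supplies NADPH (487 to 47.8 CPM), Mgst1 (504 to 74.8 CPM) and Glrx (434 to 81.8 CPM). In border macrophages 14 of 33 genes were called higher at 3 dpi over ActD sham and 3 lower, against 8.91% and 15.1% of all genes. By 14 dpi over 3 dpi, 13 of 32 antioxidant genes in microglia and 18 of 29 in border macrophages were called lower, against 14.6% and 11.5% of all genes, with 0 and 1 called higher, against 11.1% and 13%.

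The genes whose levels were most like those of a member were found over the 16 profiles of a class in a library, among 11316 genes. For Cybb these were Lmo1, Actr3 and Dram1 (Spearman's rho of 0.941, 0.915 and 0.912), and for Srxn1 they were Cstb, Gpnmb and Gm11273 (0.906, 0.900 and 0.888). Ncf4 was closest to Ffar2 (0.954) and Sod2 to Nr4a2 (0.897). Among the members, the largest values were 0.67 for Cyba with Gpx1 and −0.67 for Ncf4 with Cat, while Cybb and Ncf1 had −0.05. Profiles of one library share its depth and dissociation, and these values are descriptions only.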

How the data were processed

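The authors deposited, for each library, a matrix of UMI counts per gene and cell barcode made with Cell Ranger on mm10 (per the submitters' processing notes), and these raw counts were used as deposited. Following the study, a cell was kept when it had at least 600 genes, at most 10% of its UMIs from mitochondrial genes, and no lymphoid marker together with Itgam. Doublets were removed by a score against simulated doublets, at a rate of 0.8% per 1000 cells that passed these filters. Each library was clustered alone with scanpy 1.11.5 (2000 variable genes, 30 principal components, 20 neighbours, Leiden resolution 1). Clusters were named from marker lists when at least 3 markers were detected, with limits set after the clusters were seen. A cluster with a mixed score was left unnamed, as was one led by genes against its name. The exception was mixing among border macrophages, infiltrating macrophages and monocytes, which did not bar a name. Shares can thus differ from those of the study.

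UMIs were summed per class and library. Levels are CPM with exact Poisson intervals, ratios have exact conditional intervals and shares of cells have Clopper-Pearson intervals, all at 95%. With 1 library per condition there was no test. The calls of 2-fold were tried on simulated Poisson counts in which a set of genes was changed and the others were not. The simulation had no spread between libraries and no broad shift of genes like that in neutrophils. It therefore does not show how the calls behave in these data. The members and gene lists were chosen with earlier results of these data known. Named genes were all members, up to 3 genes of each list with the highest and lowest ratios among those called with at least 200 UMIs, and the 3 genes most correlated with each member. edgeR 4.0.16 gave TMM factors and Seurat 5.3.0 an alternative clustering.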

Additional observations from a re-analysis of the deposited data

Results flagged for a closer look

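Cybb differed in opposite directions between classes of cells. Its log2 ratio of 3 dpi over ActD sham was −4.57 in neutrophils and 2.60 in microglia. The 97 ActD sham neutrophils formed a cluster led by Ltf, whereas 1640 of 1679 neutrophils at 3 dpi fell in a cluster led by G0s2. Microglia in ActD sham held 10.97 CPM of Cybb, which did not exceed the 33.1 CPM of T cells from 8 UMIs. The difference between the classes was not tested, since each class had 1 library per condition.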

How the results depend on the processing

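No paired analysis was possible because the groups compared hold 1 library each. Of 30 calls of a member past 2-fold, 20 held under every alternative that gave a value and none changed direction. The share of calls over all genes that held in this way is not given, so these counts have no background. In neutrophils, the member calls lost under some alternative were Cat at 3 dpi, and Srxn1 at 14 dpi and in standard sham, all over ActD sham. In border macrophages they were Cyba at 3 dpi over ActD sham, and Cybb, Ncf4, Gpx1 and Srxn1 at 14 dpi over 3 dpi. In microglia they were Cybb (0.88 with libraries merged) and Srxn1 (−0.85 with 200 genes and 20%, −0.93 with Seurat anchors), both at 14 dpi over 3 dpi. The cause of the changes below was not tested. The difference in oxidase share between neutrophils and microglia was 12.4, 6.9, 5.3 and 1.1 points in standard sham, ActD sham, 3 dpi and 14 dpi. In standard sham it was 11.5 at resolution 0.5, 11.6 with 200 genes and 20% mitochondrial UMIs, 11.4 with 1000 genes and 5%, 11.2 with libraries merged, 15.7 without Cyba and Gpx1 and 11.4 as a mean over cells. In ActD sham it was 6.1 with 1000 genes and 5%, 8.3 merged, 14.6 without Cyba and Gpx1, 5.1 as a mean over cells, 7.7 with Seurat anchors and 7.7 with leading genes set against every other cluster, an alternative chosen after seeing the data. At 3 dpi it was 4.2 with 1000 genes and 5%, 4.4 merged and 10.1 without Cyba and Gpx1. At 14 dpi it was 0.0 with 200 genes and 20%, 0.5 merged, at double resolution and with Itgam and lymphoid cells kept, 0.6 with Seurat anchors, 1.9 with doublets kept, 14.9 without Cyba and Gpx1 and −2.8 as a mean over cells, the only reversal.

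Members called in neutrophils at 3 dpi over ActD sham went from 4 to 7 with TMM and 2 at 200 UMIs. For 14 dpi over ActD sham they went from 1 to 2 as a mean over cells and 0 with Seurat anchors or at 200 UMIs. At 14 dpi over 3 dpi they went from 1 to 2 with 200 genes and 20% or Seurat anchors, 3 merged, 6 with TMM and 4 on CPM alone. Without clusters led by Ltf or Ngp, also chosen after seeing the data, Cybb was 2.47 there. In standard over ActD sham they went from 2 to 4 at resolution 0.5 and 1 at 200 UMIs. In border macrophages at 14 dpi over ActD sham they went from 0 to 2 with 200 genes and 20% and 1 with doublets kept or TMM. From 3 to 14 dpi they went from 4 to 1 with 200 genes and 20% or doublets kept and 2 merged, and in standard over ActD sham from 2 to 1 merged or at 200 UMIs. In microglia at 14 dpi over ActD sham they went from 2 to 4 with TMM, and in standard over ActD sham from 1 to 2 with doublets kept or at 1 UMI, 3 with TMM and 0 at 200 UMIs. With TMM the other oxidase genes called went from 1 to 3 in neutrophils at 3 dpi over ActD sham, 0 to 4 at 14 dpi over 3 dpi, 0 to 1 in monocytes at 14 dpi over 3 dpi and 0 to 1 in microglia in standard over ActD sham. The antioxidant list went from 5 to 8 in monocytes at 14 dpi over 3 dpi, and from 8 to 15 in microglia at 14 dpi over ActD sham. No share of all genes is given for the calls under any of these alternatives, so the changed counts have no background. On CPM alone, Sod2, Cat and Srxn1 were added as lower in neutrophils at 14 dpi over 3 dpi. The median gene of that comparison was itself shifted by −1.13 on the log2 scale.

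Thinned to 2000 UMIs, 61.2%, 9.08% and 52.6% of neutrophils had a Cybb UMI in standard sham, 3 dpi and 14 dpi, and 2.33%, 10.97% and 20.8% of microglia. Without thinning the shares were 75.2%, 89.7%, 11.1% and 59.4% of neutrophils and 6.501%, 4.68%, 48.4% and 47.8% of microglia over the 4 libraries. Nqo1 had 18 to 94 UMIs per library, and Srxn1 and Cat had 4 and 7 UMIs in ActD sham neutrophils, so that their ratios have wide intervals. The direction of the monocyte share at 3 dpi turned without Cyba and Gpx1 (81.6% in place of 73.4%).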

Other observations

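Cells outside the 5 classes also carried the members. Myeloid progenitors, named in standard sham (126 cells) and at 14 dpi (498 cells), had oxidase shares of 57.9% and 55.7%. Dendritic cells had shares of 64.9% at 3 dpi (634 cells) and 56.6% at 14 dpi (349 cells). NK cells had 82.2% at 3 dpi (36 cells) and 81.2% at 14 dpi (244 cells). T cells had 63.0% in ActD sham, 74.1% at 3 dpi and 75.4% at 14 dpi. B cells had 54.8%, 76.2%, 75.15% and 52.6% in standard sham, ActD sham, 3 dpi and 14 dpi. With all members, a high oxidase share was thus not particular to the 5 classes. Without Cyba and Gpx1, the 5 classes had 70.84% to 99.15%. NK cells then had 75.0% at 3 dpi, from 15 oxidase and 5 antioxidant UMIs, and 60.45% at 14 dpi. T cells had 47.7%, 63.15% and 56.5% in ActD sham, 3 dpi and 14 dpi. B cells had 56.4%, 82.9%, 85.1% and 56.95% over the 4 libraries. Myeloid progenitors had 93.5% and 93.3%, and dendritic cells 83.1% and 86.1%. In dendritic cells Srxn1 was 18.2 CPM at 3 dpi (interval 15.0 to 22.0) and 2.97 CPM at 14 dpi (1.42 to 5.46), an order of these libraries also seen in the classes of the report. B cells had 265 CPM of Cybb in ActD sham, 166 CPM at 3 dpi, 66.1 CPM in standard sham and 59.9 CPM at 14 dpi. The unnamed cluster of 571 cells at 14 dpi, led by Gpnmb, held 2203 CPM of Cyba and 24.97 CPM of Srxn1, with an oxidase share of 83.0%.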
